A study of Homo sapiens with 6 samples.

Results

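The major histocompatibility complex (MHC) is the gene-dense stretch of chromosome 6 that encodes the HLA molecules. Its CpGs were taken as all CpGs between positions 29600000 and 33400000 of the hg19 build, with both strands of a CpG summed, that at least 10 reads covered in each of 6 libraries. That rule, which uses position and read number but no methylation level, gave 971 CpGs out of 336571 in the genome, and out of 3773 MHC CpGs listed in any library (25.7%). Genomic DNA of PC-3, an established human prostate carcinoma line, was sequenced after bisulfite conversion, which makes an unmethylated C read as T. One group of 3 libraries came from cells given 160 µM S-adenosylmethionine (SAM), the methyl donor that DNA methyltransferases use, and the other group of 3 from cells given PBS as control. Both groups were treated for 5 days. Every library is from this single cell line, and no label tells whether the replicates were grown separately, so errors and p-values measure the spread between these libraries alone, which may be technical.

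The class I part of the region carries the HLA heavy chains that present peptides from inside the cell to cytotoxic T cells. The class II part carries the chains that present peptides taken up from outside, which are normally made by antigen-presenting cells and induced elsewhere by interferon gamma, together with the transporter and proteasome genes that supply class I peptides. The class III part between them holds complement, cytokine and heat-shock genes and many housekeeping genes. Across the genome, CpG-rich gene starts are generally unmethylated and the CpGs between and inside genes are generally methylated.

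The CpGs fell into 396 in class I (29.6 to 31.4 Mb), 306 in class III (31.4 to 32.3 Mb) and 269 in class II (32.3 to 33.4 Mb). Class III was the most densely covered, with 34 common CpGs per 100 kb against 22 in class I and 24.5 in class II. At the 971 CpGs the SAM libraries had medians of 126, 44 and 153 reads (replicates 1, 2 and 3) and the control libraries of 141, 40 and 139. Across those CpGs, which are not independent replicates, Pearson's r between the levels of any 2 libraries was 0.968 to 0.986. Total reads over listed positions ranged from 36220663 to 179379782 in SAM libraries and from 33056018 to 183523792 in controls. By read coverage along the genome the libraries were divided into 2 sets, each with both treatments, by the split with the highest similarity within sets of all 10 splits into 3 and 3, with SAM replicate 1 and control replicates 1 and 3 in set A and SAM replicates 2 and 3 and control replicate 2 in set B. The division is not clean, since r between the coverages of 2 libraries was as low as 0.587 within a set and as high as 0.822 between sets. Differences within each set are given beside the pooled ones, and what part coverage has in them was not tested.

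Genes were placed without an hg19 annotation, by matching the CG spacing of a RefSeq promoter sequence (250 bases before to 50 bases after a transcription start) to the listed CpG positions of chromosome 6. A few such windows are shown because they carry the contrast described below, namely the only pair of windows of listed genes whose common CpGs were methylated, and a pair from the same class II part that was not. They are printed 5′ to 3′ on the gene's strand with RefSeq coordinates of GRCh38.p14, which is another build than the hg19 positions used elsewhere. Capitals mark the CGs that are among the 971 CpGs. The HLA-DPA1 window is chr6:33080699-33080998 on the minus strand, COL11A2 is chr6:33193088-33193387 on the minus strand, TAP2 is chr6:32838690-32838989 on the minus strand, and BRD2 is chr6:32968344-32968643 on the plus strand.
HLA-DPA1: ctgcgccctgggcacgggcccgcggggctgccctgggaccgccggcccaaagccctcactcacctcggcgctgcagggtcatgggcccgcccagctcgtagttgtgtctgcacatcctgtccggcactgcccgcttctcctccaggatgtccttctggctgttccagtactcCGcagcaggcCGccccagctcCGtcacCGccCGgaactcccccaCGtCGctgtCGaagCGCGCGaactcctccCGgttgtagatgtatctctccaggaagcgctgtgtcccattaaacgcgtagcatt
COL11A2: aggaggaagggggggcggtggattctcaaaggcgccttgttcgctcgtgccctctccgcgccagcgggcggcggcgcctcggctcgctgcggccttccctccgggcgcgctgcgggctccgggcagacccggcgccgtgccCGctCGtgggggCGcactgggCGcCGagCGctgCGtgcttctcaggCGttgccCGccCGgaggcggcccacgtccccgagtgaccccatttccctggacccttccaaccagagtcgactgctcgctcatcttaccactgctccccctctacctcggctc
TAP2: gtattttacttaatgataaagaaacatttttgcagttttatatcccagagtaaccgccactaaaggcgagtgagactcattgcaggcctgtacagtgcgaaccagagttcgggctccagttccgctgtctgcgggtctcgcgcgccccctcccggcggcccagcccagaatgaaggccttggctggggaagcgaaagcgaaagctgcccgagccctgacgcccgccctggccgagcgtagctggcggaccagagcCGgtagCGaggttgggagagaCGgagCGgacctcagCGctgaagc
BRD2: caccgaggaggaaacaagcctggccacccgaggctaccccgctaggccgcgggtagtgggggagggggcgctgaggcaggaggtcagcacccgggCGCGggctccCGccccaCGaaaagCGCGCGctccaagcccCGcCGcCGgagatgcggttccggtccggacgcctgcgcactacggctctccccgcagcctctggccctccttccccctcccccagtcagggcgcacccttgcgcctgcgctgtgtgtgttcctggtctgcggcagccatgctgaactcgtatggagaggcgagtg
The HLA-DPA1 window holds 27 CGs, of which 12 are common CpGs, and the COL11A2 window holds 37 CGs with 10 common CpGs. TAP2 has 24 CGs with 5 common CpGs and BRD2 has 30 with 10. All 4 windows are thus rich in CGs, whatever their level. On either strand, GGGCGG occurs in all 4 windows and in 45.0% of 35116 promoter windows of this length, TATAAA occurs in the TAP2 window alone of the 4 and in 11.5% of all, and CCAAT occurs in none of the 4 and in 34.6% of all. A match of letters shows no binding.

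The 3 parts of the complex differed widely in methylation within this cell line. Class III was the most methylated, with CpGs averaging 52.9%, 52.4% and 51.7% in the SAM libraries (replicates 1, 2 and 3) and 51.9%, 52.3% and 51.0% in the control libraries. Class I lay far below it, at 33.3%, 32.8% and 33.0% in SAM libraries and 33.3%, 33.4% and 33.3% in controls. Class II was lowest, at 24.0%, 23.9% and 24.2% in SAM libraries and 24.0%, 23.5% and 23.2% in controls. Of its 269 CpGs, 72, 68 and 78 lay in the 100 kb from 33100000, 33200000 and 33300000, beyond the HLA-DPA1 window. These stretches averaged 28.3%, 25.7% and 7.03% over all libraries. The other covered stretches of class II held 3 to 14 CpGs each, at 0.0807% to 89.0%. The class II mean thus describes mainly the far end of that part, not its HLA genes. No library of 1 class came near those of another, while within each class the treated and control libraries overlapped. CpGs of a class lie in shared reads and neighbouring tiles, so the class means describe this line and these covered CpGs.

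**Figure D1:**
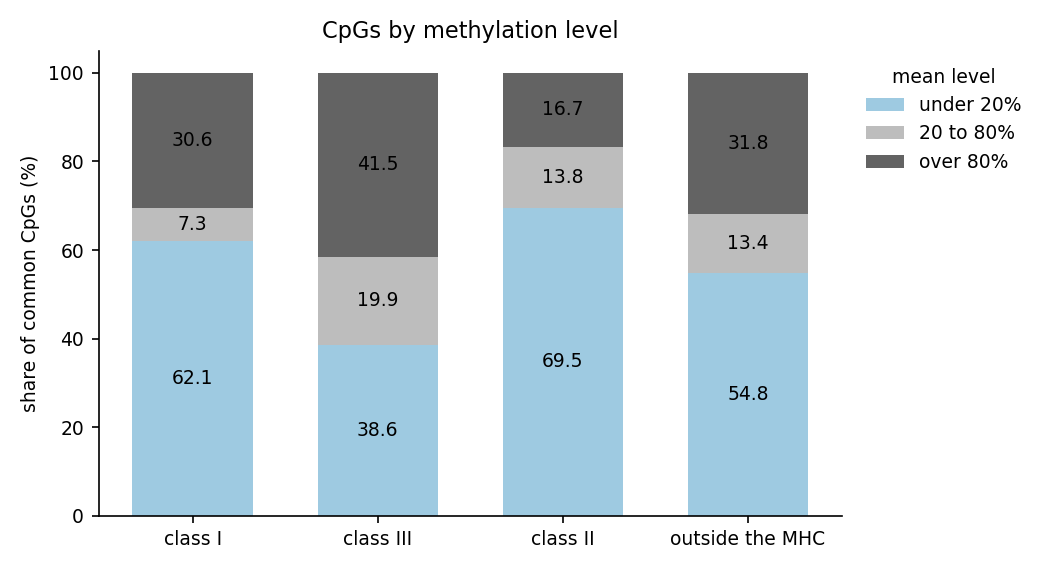
Share of CpGs (%, vertical axis) by mean level over the 6 libraries, as stacked bars for class I, class III, class II and all common CpGs outside the MHC. Class III has the smallest share under 20% (38.6%) and the largest over 80% (41.5%), and class II the reverse (69.5% and 16.7%).

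Most CpGs were either nearly unmethylated or nearly fully methylated. In class I, 246 of 396 CpGs (62.1%) had a mean level under 20%, 121 (30.6%) were over 80% and 29 (7.32%) lay between. In class III the same counts were 118 (38.6%), 127 (41.5%) and 61 (19.9%) of 306. In class II they were 187 (69.5%), 45 (16.7%) and 37 (13.8%) of 269. Over the complex, 56.7% of CpGs were under 20%, 13.1% between and 30.2% over 80%, beside 54.8%, 13.4% and 31.8% of the 335600 common CpGs elsewhere. The complex as a whole therefore had nearly the same makeup as the rest of the genome, and its classes lay on both sides of it. CpGs at intermediate levels also varied more between libraries. The median SD of a CpG over the 6 libraries was 1.34 percentage points for all 971 CpGs and 9.46 points for those of 20 to 80%.

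**Figure D2:**
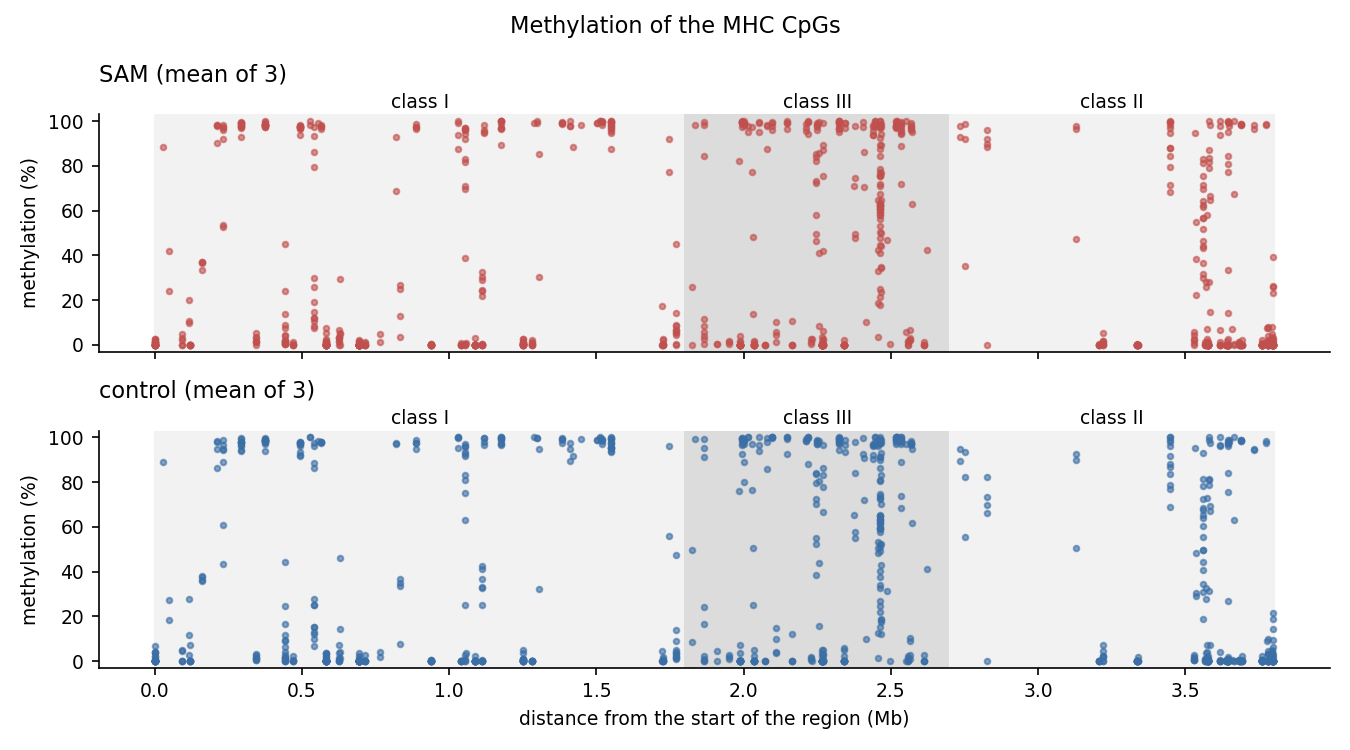
Methylation (%, vertical axis) of each of the 971 CpGs by distance from the start of the region (Mb, horizontal axis), as the mean of 3 SAM libraries above and of 3 control libraries below, with the class III part shaded darker. Points gather near 0% and 100% in both groups, with a column of intermediate CpGs in class III near 2.5 Mb, and gaps in class II where few CpGs were covered.

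Mean levels of 100 kb bins differed widely along the complex, and some bins rested mainly on 1 short cluster of CpGs. Of 38 bins of 100 kb, 35 held common CpGs. The empty ones were at 31.2 Mb, in class I, and at 32.5 and 32.6 Mb, in class II. In class I the bin from 29800000 averaged 93.0% with SAM and 92.0% in controls over 22 CpGs, and the bin from 31100000 averaged 98.1% and 97.6% over 21 CpGs. Between them lay the bin with the most class I CpGs, 51 from 30200000, at 1.30% with SAM and 1.72% in controls. Of its 51 CpGs, 39 lay within 1 kb, around the starts of TRIM39 and HCG18. Class II held both extremes side by side. The bin from 32900000 averaged 0.0326% with SAM and 0.129% in controls over 14 CpGs, and the next, from 33000000, 89.0% in both groups over 12 CpGs. Those 12 were all of the HLA-DPA1 window shown above, and 10 of the 14 were of the BRD2 window. In class III the bin from 32000000, with 76 CpGs the fullest of that class, averaged 68.9% with SAM and 65.5% in controls.

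At the scale of 1 kb, 111 tiles held at least 3 common CpGs, of which 58 had a mean level under 20%, 36 over 80% and 17 between. Class I tiles divided as 24, 15 and 4, class III tiles as 14, 17 and 6, and class II tiles as 20, 4 and 7. Of 31 tiles with at least 10 CpGs, 15 had a placed start within 2000 bases. Among the 31, 20 were under 20%, and 12 of those 20 had such a start. The fullest tile of all, with 43 CpGs in class III, was intermediate and is described below. In class I, the tile at 30294001 to 30295000 held 39 CpGs around the starts of TRIM39 and HCG18 and was at 0.160% with SAM and 0.201% in controls. The class I tile at 29600001, with 22 CpGs and no placed start, was at 0.649% and 0.953%, and the one at 30181001, with 16 CpGs at the start of TRIM26, at 0.931% and 0.401%. In class II, the tile at 33176001, with 19 CpGs at the start of RING1, was at 0.139% with SAM and 0.266% in controls, and those at 33359001 and 33395001, also of 19 CpGs and with no placed start, stayed under 1% in both groups. The class III tile at 31865001, with 17 CpGs beside the starts of EHMT2 and C2, was at 0.349% with SAM and 0.676% in controls, and the one at 31588001, with 17 CpGs at the start of PRRC2A, at 0.426% and 0.647%.

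Some tiles of high methylation also held CpGs well below the tile mean. In class I the tile at 29974001, of 13 CpGs, was at 98.3% with SAM and 98.2% in controls, the one at 31148001, also of 13, at 97.2% and 96.8%, and the one at 29894001, of 11, at 97.8% and 97.2%. Those of class III with the most CpGs were at 31922001 (11 CpGs, 98.2% with SAM and 98.3% in controls), 32135001 (10 CpGs, 93.7% and 92.2%) and 32063001 (9 CpGs, 89.5% and 88.1%). The CpGs of the first of these ranged from 96.8% to 99.6%, but those of 32135001 from 72.8% to 99.6% and those of 32063001 from 63.4% to 100%. None of these class I and class III tiles lies within 2000 bases of a placed start. In class II the tiles over 80% with the most CpGs were those of 4 CpGs at 33289001 (98.5% in both groups) and of 8 at 33245001 (83.7% with SAM and 84.2% in controls, with CpGs from 30.3% to 99.3%), beside the 12 of the HLA-DPA1 window described below.

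Neighbouring CpGs mostly had like levels, with a few steep steps. Among 770 pairs of neighbouring CpGs within 100 bases of each other, the median change in level was 0.902 percentage points, and 14 pairs changed by more than 50 points. Of those 14 steps, 4 were the sides of 2 single CpGs that differed from both neighbours, at 33181490 and 33181912 in class II. At 31466938 and 31466958 in class III, 20 bases apart, the mean level over all libraries was 0.317% and then 99.3%. At 32152603 and 32152661, 58 bases apart and the only common CpGs of their tile, it was 2.78% and then 98.5%. In class I the steepest step was between 30139832 (12.5%) and 30139871 (87.4%). In class II, the CpGs at 32427748 and 32427751, 3 bases apart, stood at 0% and 79.7%. A CpG that carries T in these cells' own sequence reads as unmethylated in this assay, and the files cannot tell the 2 apart.

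Levels near placed gene starts were lower than far from them in class I and class III, and little different in class II. Within 500 bases of a placed start lay 282 of the 971 CpGs, of which 90.8% were under 20%, with a mean of 6.61% ± 0.140 in SAM libraries and 6.62% ± 0.153 in controls (SD, n = 3 each). Farther than 2000 bases lay 619 CpGs, of which 41.5% were under 20% and 43.9% over 80%, with a mean of 50.9% ± 0.371 with SAM, against 50.4% ± 0.542 in controls (SD, n = 3 each). Not every start could be placed, so this second set still holds gene starts. Near a placed start, all 74 class III CpGs and 120 of 123 class I CpGs were under 20%, against 62 of 85 in class II. Of the class II CpGs near a start, 12 were of the HLA-DPA1 window and 10 of a COL11A2 window, none under 20%. All other placed class II windows with common CpGs averaged under 5%, so the class II value rests largely on those genes. Class III CpGs farther than 2000 bases from a placed start were at 71.3% with SAM and 70.1% in controls, while those of class I were at 50.1% and 50.5% and those of class II at 25.7% and 24.7%. In class II the CpGs within 500 bases were at 19.3% with SAM and 19.4% in controls, and 69.9% of those farther than 2000 bases were under 20%, close to the 72.9% within 500 bases.

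A list of 87 genes of the region was drawn up by role, and 76 of them have a promoter sequence in the RefSeq table. Of these, 24 were placed by at least 8 listed CpGs and 6 more by at least 6, a looser minimum added after the data were seen. Among the 30 placed genes, 12 had common CpGs, in 14 windows. Of those windows, 12 were under 5% and 2 were over 20%. Of all 26 placed windows with common CpGs, listed genes or not, 24 were under 5% and the same 2 were over 20%.

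The pathway that loads peptides onto class I molecules was represented by TAP2 alone of 5 listed genes. TAP2 is a subunit of the transporter that moves peptides into the endoplasmic reticulum. The 5 common CpGs around its start, at hg19 position 32806516 on the minus strand, averaged 0%, 0% and 0.119% in the SAM libraries and 0% in each control library, at 12 to 168 reads. All 6 libraries were thus unmethylated there. A library with 12 reads at a CpG and none methylated can miss a level of a few percent or well above that.

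Among 13 listed genes for class II chains and their editors, HLA-DPA1, the alpha chain of HLA-DP, was the one placed. RefSeq gives it 2 starts, and the window placed here, hg19 33048476 to 33048775 with the start at 33048525 on the minus strand, lies inside HLA-DPB1, which is read on the opposite strand. As background, this stretch overlaps the HLA-DPB1 exon that encodes the variable peptide-binding domain, where HLA alleles differ, so a T carried by the cells at a listed C cannot be told from an unmethylated C. Its 12 common CpGs averaged 88.0%, 89.6% and 89.4% in the SAM libraries and 87.6%, 88.9% and 90.4% in the control libraries, at 43 to 1387 reads. The groups overlapped, and SAM minus control was 0.0423 points (standard error 0.939). Within coverage set A the difference was -0.929 points and within set B 0.540 points.

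Levels in that window fell with distance from the start. The 5 CpGs from 4 to 24 bases upstream had mean levels over all libraries of 98.0% to 99.7%. The CpG 30 bases upstream was at 91.4%, the one 46 bases upstream at 84.1%, and the farthest pair, 67 and 77 bases upstream, at 70.0% and 73.4%. In each of the 6 libraries this farthest pair lay below the 5 CpGs nearest to the start, as the plot of start windows shows. Farther upstream the listed CpGs are not common to all libraries. The CpG 128 bases upstream was at 98.2% over the 5 libraries that list it, so the slope did not go on evenly. Beyond it, 5 CpGs from 207 to 235 bases upstream, listed in SAM replicates 1 and 3 only, ranged from 0% to 33.3%, and the CpG 246 bases upstream was at 57.1% and 59.0% in those libraries.

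**Figure D3:**
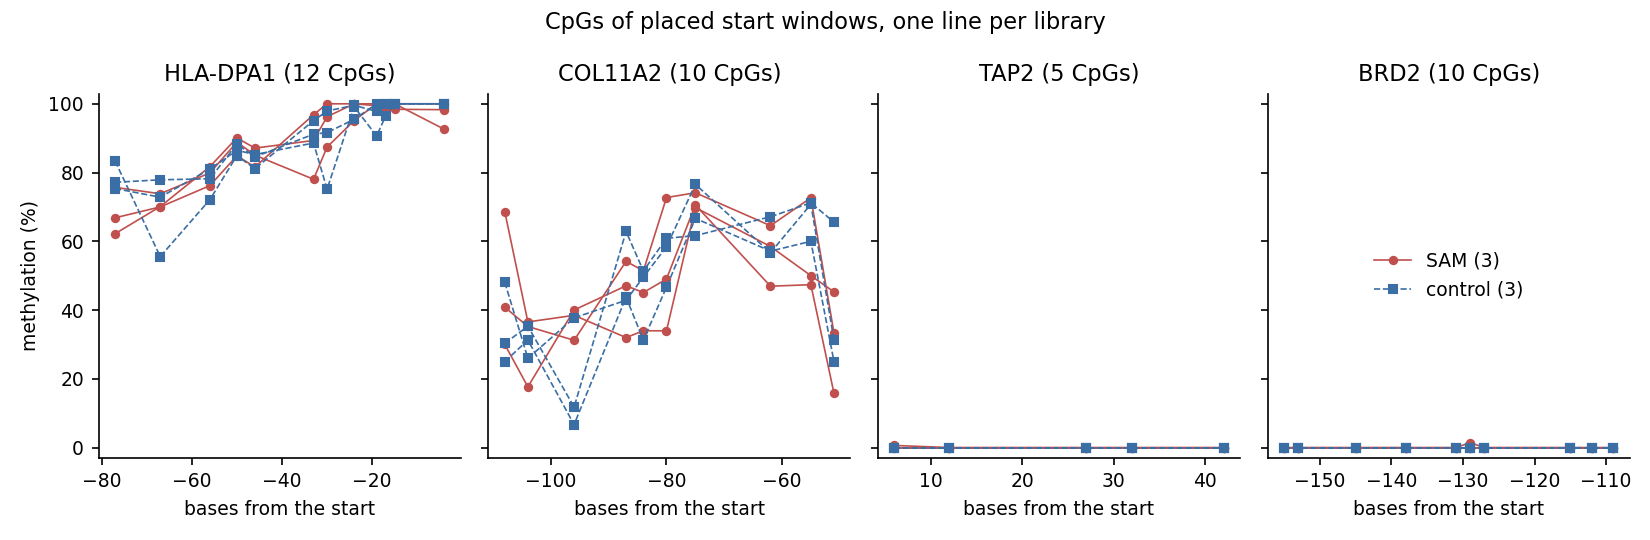
Methylation (%, vertical axis) of the common CpGs in 4 start windows by distance from the start (bases, negative values upstream), with 1 line per library, SAM libraries as solid red lines with circles and control libraries as dashed blue lines with squares. HLA-DPA1 falls away from its start in every library, COL11A2 lies at intermediate levels with crossing lines, and TAP2 and BRD2 stay near 0%.

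COL11A2, which encodes a chain of type XI collagen and is known for its role in cartilage, was the other methylated start. The window placed at hg19 33160865 to 33161164, around 1 of its 4 RefSeq starts (33160914, minus strand), had 10 common CpGs at 53.0%, 41.0% and 46.7% in the SAM libraries. In the control libraries they were at 49.8%, 39.3% and 51.8%. The groups overlapped widely, and replicate 2 was the lowest library of each. SAM minus control was -0.0839 points (standard error 5.20). Within set A it was 2.22 points and within set B 4.49 points. Its 10 CpGs each had an intermediate mean level, from 27.6% to 69.9%. A second COL11A2 start, at 33161296, was covered in 4 libraries only, where its 8 listed CpGs averaged 78.7% and 82.3% in SAM replicates 1 and 2 and 73.7% and 79.997% in control replicates 1 and 3.

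Chromatin and transcription genes were represented by BRD2 and RING1 among 11 listed. BRD2 binds acetylated histones, and its 10 common CpGs averaged 0%, 0% and 0.137% in the SAM libraries and 0% in every control library. RING1, a ubiquitin ligase of Polycomb repressive complexes, had 8 common CpGs at 0.639%, 0% and 0.291% with SAM and 0.212%, 0% and 0.333% in controls. Both starts were unmethylated in every library. C2, a protease of the complement cascade, had 5 common CpGs at 0% in all SAM libraries and at 0%, 1.38% and 0.105% in the control libraries.

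Both placed TRIM genes, which encode RING-type ubiquitin ligases, were unmethylated at their starts. TRIM26 had 14 common CpGs at 1.13%, 0% and 0.478% with SAM and 0.0406%, 0% and 0.824% in controls, and TRIM39 had 17 and 20 common CpGs at its 2 placed starts, where no library exceeded 0.857%. Other placed genes had the same low levels. The 9 common CpGs at 1 start of TUBB, a beta-tubulin, had no methylated read in any library, and no library exceeded 1.02% at the 7 CpGs of its other start. ABCF1, a translation factor, and FLOT1, a membrane scaffold protein, had 6 and 7 common CpGs and stayed under 0.3% in every library. DDR1, a collagen receptor, had only 2 common CpGs, at 0%, 0% and 4.13% with SAM and 0%, 7.50% and 0% in controls.

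Another 18 listed genes were placed, but without a CpG common to all libraries, and their values are therefore outside the 971. Of these, 14 were under 20% in every library that listed their CpGs and 4 were over 20%. The highest level in any library among the 14 was 11.2%, at PRR3 in control replicate 3, and without PRR3 it was 5%. They include EHMT2, a histone methyltransferase (no library above 0.345%), RXRB, a retinoid X receptor (0.529%), and HSPA1B, a heat-shock protein (0%). Among the 4, LTA, the cytokine lymphotoxin alpha and the only placed gene of the TNF cluster, was methylated over 4 to 8 listed CpGs, at 92.0%, 82.9% and 88.2% in the SAM libraries and 88.7% and 92.3% in control replicates 1 and 3. MICA, a stress ligand that alerts natural killer cells and 1 of the 14, was at 0% in SAM replicates 1 and 3 and at 0%, 1.92% and 5% in the control libraries, over 4 to 8 CpGs. Under the looser placement, ZFP57, which protects imprinted methylation, was at 77.7% and 84.2% in SAM replicates 2 and 3 and at 75.2% and 84.6% in control replicates 2 and 3, each over 6 or 7 CpGs. Control replicate 1 listed only 3 CpGs there, at 100%. HLA-G, an HLA molecule known from the placenta, was listed in control replicate 3 only, at 97.3% over 6 CpGs. HSD17B8, a dehydrogenase, was intermediate, at 50.7% over 8 CpGs in SAM replicate 1 and 34.8% over 9 CpGs in control replicate 3.

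The densest cluster of the complex lay in class III, in the tile at 32064001 to 32065000, which has no placed start within 2000 bases. It held 43 CpGs over 968 bases, and 33 of the 61 intermediate CpGs of class III. Their mean was 63.6%, 64.97% and 58.8% in the SAM libraries and 59.6%, 58.8% and 53.6% in the control libraries. SAM replicate 3 thus lay below control replicate 1, and replicate 3 was the lowest library of each group. The means were 62.5% ± 3.24 with SAM, against 57.3% ± 3.25 in controls (SD, n = 3 each), which is 5.14 points apart (standard error 2.65). The whole-genome tile test with edgeR's quasi-likelihood method gave an adjusted p of 0.9999. Within set A the difference was 7.05 points and within set B 3.07 points. Of the 43 CpGs, 28 were higher and 15 lower with SAM. Groups did not overlap at 1 of the 43, higher with SAM, beside 2.70% higher and 2.19% lower of all common CpGs. These CpGs share reads and are not separate observations.

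**Figure D4:**
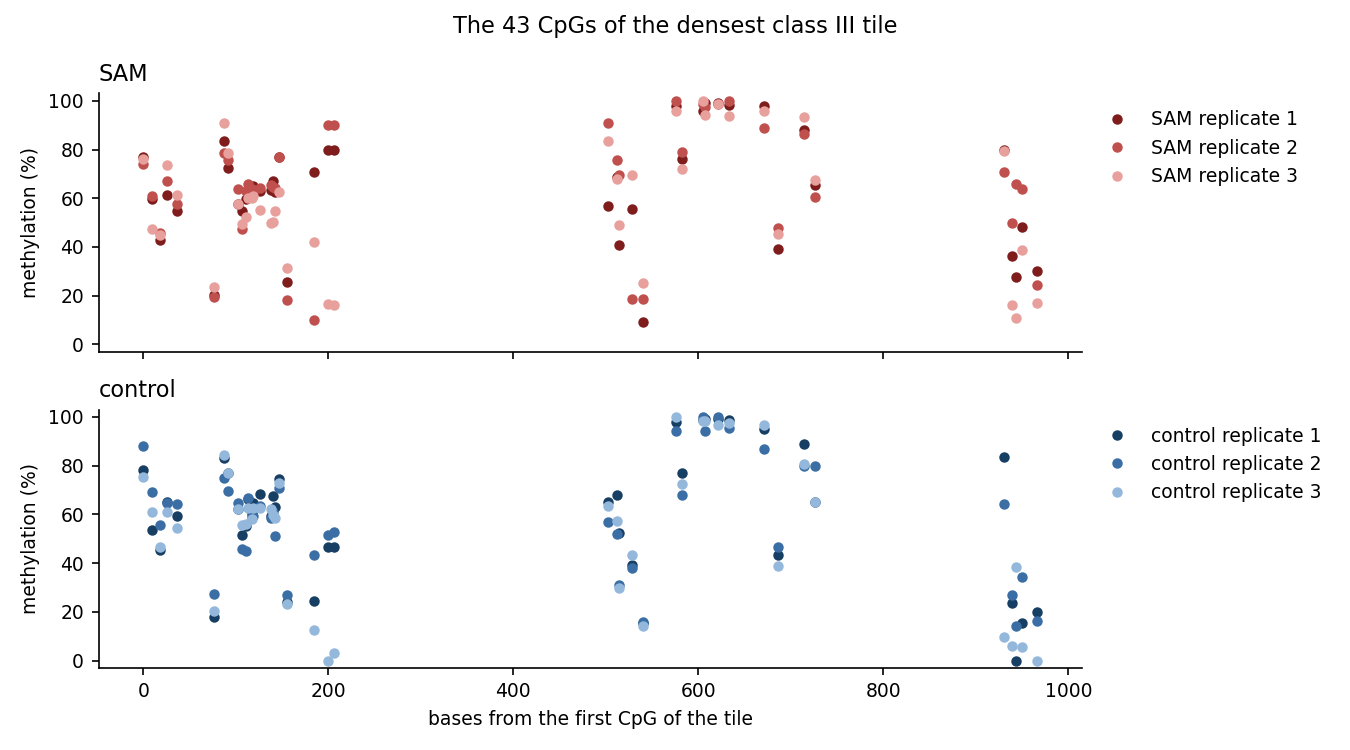
Methylation (%, vertical axis) of the 43 CpGs of the densest class III tile by distance from its first CpG (bases), with a shade per replicate, for 3 SAM libraries above and 3 control libraries below. In both groups many CpGs of the first cluster lie near 60% and those near 600 bases over 90%, and SAM libraries are higher on average, with wide spread, near 200 and 500 bases and at the far end.

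Single CpGs in this tile ranged from 16.5% to 98.7%, and the 5.14 points were not spread evenly. Over its length, 11 CpGs differed by more than 10 points, a limit set after the data were seen, all higher with SAM, by 11.6 to 31.8 points at 10 to 294 reads. They lay 185 to 206, 502 to 514 and 930 to 966 bases from the first CpG. CpGs within each of these short stretches share reads, and the share of CpGs over 10 points apart in the genome was not counted. The other 32 differed by -5.50 to 7.77 points. The largest difference was at 32064956, with 48.0%, 63.6% and 38.8% in SAM libraries and 15.2%, 34.2% and 5.56% in controls, where every SAM library was above every control library. At 32064206, another of the 11, the libraries stood at 80%, 90% and 16.4% with SAM and 46.7%, 51.5% and 0% in controls, at 10 to 61 reads. The 2 strands also differed here. Only 14 of the 971 CpGs had at least 10 reads on each strand in all libraries, and at 5 of them the strands differed by more than 20 percentage points, against 4.83% of 7908 such CpGs in the genome. All 5 lay between 32064108 and 32064125, where the plus strand read 73.4% to 82.1% and the minus strand 48.6% to 57.8%.

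Other intermediate tiles were smaller. In class I they were at 30139001 (13 CpGs, 38.2% with SAM and 39.8% in controls), 30712001 (6 CpGs, 26.9% and 35.3%) and 29760001 (4 CpGs, 36.1% and 36.9%). In class III the tile at 31869001, near the start of ZBTB12, had 15 CpGs at 27.0% with SAM and 28.1% in controls. Its CpGs ranged from 0% to 97.8%. The class III tile at 31466001, with 9 CpGs at 35.0% with SAM and 36.7% in controls, held the step at 31466938 described above. In class II, COL11A2's tile at 33160001 had 13 CpGs at 62.3% with SAM and 64.6% in controls, and the tile at 33181001 had 8 CpGs at 64.7% and 64.1%. Intermediate tile means thus had different makeups, since CpGs of the tile at 29760001 lay between 35.8% and 37.3% and those of the tile at 31466001 between 0.317% and 99.3%.

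SAM treatment was next compared with control over the complex. Mean methylation of the 971 CpGs came to 36.9%, 36.5% and 36.5% in the SAM libraries and 36.6%, 36.6% and 36.1% in the control libraries. The groups overlapped, at 36.6% ± 0.244 with SAM, against 36.4% ± 0.279 in controls (SD, n = 3 each), and SAM minus control was 0.226 points (standard error 0.214). It was 0.588 points within set A and -0.0832 points within set B, so the sign depended on the set. The class III tile at 32064001 holds 43 of the 971 CpGs and was 5.14 points higher with SAM. That tile is enough by itself to give about 0.226 points over the 971 CpGs, so the difference was not spread over the complex. A mean without that tile was not computed. The 335600 CpGs outside the complex differed by 0.0191 points with a standard error of 0.0452.

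By class, the difference was -0.252 points (standard error 0.143) in class I, 0.612 points (0.507) in class III and 0.491 points (0.255) in class II. Treated and control libraries overlapped in each. Of the 306 class III CpGs, 43 lie in the tile at 32064001, which was 5.14 points higher with SAM. That tile is enough by itself to give the class III difference. Within sets A and B, class I gave 0.0267 and -0.426 points, class III gave 1.43 and -0.212 points, and class II gave 0.455 and 0.569 points. Class II was higher with SAM in both sets, but lower when CpGs were weighted by reads (-0.799 points) or when each library's own CpGs were used (-1.23 points). In that class, CpGs farther than 2000 bases from a placed start were at 25.7% ± 0.0710 with SAM, against 24.7% ± 0.780 in controls (SD, n = 3 each), and the groups did not overlap. This was 1 of 9 sets by class and distance, and the others overlapped. Class II CpGs within 500 bases differed by -0.153 points and those between 500 and 2000 bases by -0.768 points.

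**Figure D5:**
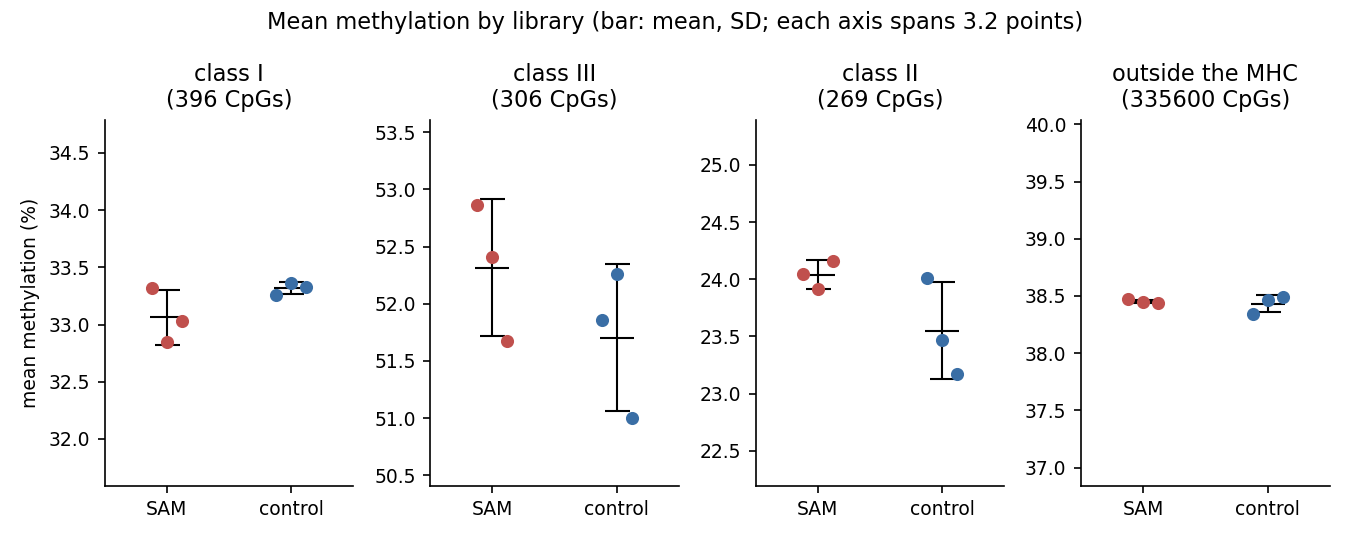
Mean methylation (%, vertical axis) of each library by class and for all common CpGs outside the MHC, SAM libraries in red on the left and control libraries in blue on the right, with the mean and SD of 3 as bars. Each panel spans 3.2 percentage points and does not start at 0, and the groups overlap in all 4 panels.

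Of the 3 level classes over the complex, only the highest separated the treatments. In the level class over 80%, the 293 MHC CpGs averaged 96.3% in each SAM library and 95.8%, 96.1% and 96.0% in the control libraries. The groups did not overlap, and the difference was 0.333 points with a standard error of 0.0697, 0.353 points within set A and 0.247 points within set B. The same class outside the complex differed by 0.364 points, also without overlap, so the shift was not particular to the complex. Among the MHC classes it was 0.643 points in class III and 1.08 points in class II, without overlap, and -0.268 points in class I, with overlap. The difference between classes was not tested.

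No single CpG passed the test across the genome. Of 725 MHC CpGs tested with edgeR's quasi-likelihood method, 0 had an adjusted p under 0.05, as had 0 of 257696 in the genome (0.0%). The other 246 had no methylated or no unmethylated read in any library and were left out. At an unadjusted p under 0.05 there were 16 (2.21%), 7 higher and 9 lower with SAM, against 2.81% in the genome, where 1.48% were higher and 1.33% lower. Limma gave 0 calls in the MHC and 0 in the genome. At an unadjusted p under 0.05 it had 27 of 725 MHC CpGs, against 10487 of 257696 in the genome. Groups that did not overlap were found at 32 CpGs higher with SAM (3.30%) and 17 lower (1.75%), against 2.70% and 2.19% of all common CpGs. The MHC counts lay near the genome's.

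Tiles gave the same picture. Of 107 tiles tested, 0 passed, as in the genome (0.0% of 33583), and 2, both lower with SAM, had an unadjusted p under 0.05, against 3.13%, of which 1.66% were higher and 1.47% lower. Limma gave 0 calls in the MHC and 0 in the genome. At an unadjusted p under 0.05 it had 4 of 107 MHC tiles, against 1400 of 33583 in the genome. Of 111 tiles, 6 were higher with SAM without overlap (5.41%) and 5 lower (4.50%), against 5.21% and 3.88% in the genome. A p that misses the threshold does not show equal methylation, and libraries with 10 reads at a CpG leave wide counting error.

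The CpGs nearest to the threshold are given as values, all with an adjusted p of 0.890 from edgeR's quasi-likelihood test. At 32135052 in class III, SAM libraries were at 100%, 100% and 98.9% and control libraries at 92.5%, 84.1% and 90.5%, with 14 to 176 reads. At 31601689, also in class III, all SAM libraries were at 100% and control libraries at 65.5%, 87.5% and 87.5%, with 15 to 96 reads. In both, every SAM library was above every control library. At 31588589, 97 bases from the start of PRRC2A, the order was the other way, with 0.840%, 0.318% and 2.43% in SAM libraries and 11.3%, 4.64% and 5.69% in controls. The remaining pair, 33218697 in class II and 32063671 in class III, had overlapping groups, with 87.9%, 100% and 93.9% in SAM libraries and 100% in all controls at the first CpG, and 100% in all SAM libraries and 100%, 87.5% and 81.9% in controls at the second.

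Larger differences without overlap occurred where libraries also varied most. At 31869043 in class III the SAM libraries were at 55.0%, 0% and 70.3% and the control libraries at 85.3%, 73.1% and 75.0%, a difference of -36.0 points with a standard error of 21.7 and 13 reads in the library at 0%. At 32352894 in class II they were at 29.7%, 36.6% and 39.3% with SAM and 72.7%, 46.2% and 46.9% in controls, a difference of -20.1 points. In class I the largest was at 29831986, with 51.0%, 50% and 57.1% in SAM libraries and 44.7%, 43.5% and 41.8% in controls, a difference of 9.36 points with a standard error of 2.39. Unlike the others, that CpG had close replicates in both groups. None of the 3 had an adjusted p under 0.890.

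Among tiles, the largest class II difference without overlap was at 32427001, where 5 CpGs averaged 71.5%, 77.1% and 71.0% with SAM and 62.6%, 69.1% and 43.3% in controls. It came to 14.9 points with a standard error of 8.002, 18.6 points within set A and 4.93 points within set B, and control replicate 3 lay far below the other libraries. The 4 CpGs at 33396001 averaged 32.7%, 23.5% and 29.58% with SAM and 9.22%, 18.6% and 19.9% in controls, 12.7 points higher with SAM with a standard error of 4.32. Every SAM library there was above every control library, and the difference was 18.1 points within set A and 7.94 points within set B. In class I the 4 CpGs at 30630001 averaged 92.9%, 96.2% and 96.4% with SAM and 98.1%, 98.9% and 99.0% in controls, which was the largest class I difference without overlap at -3.55 points. The other tile with an unadjusted p under 0.05 was at 31695001 in class III, at 98.0% with SAM and 99.88% in controls over 4 CpGs, and the largest class III difference was -6.22 points at 31977001. Another 2 tiles among the 5 with the smallest p, at 30881001 in class I and 31940001 in class III, were unmethylated and overlapped, at 0.316% and 0.222% with SAM and 0% and 0.731% in controls. All these tiles had an adjusted p of 0.9999 from edgeR's quasi-likelihood test.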

How the data were processed

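Each library has 1 deposited list of cytosine positions. Per the file headers, a position's coverage is a read count, and the shares of those reads with C and with T are given in percent. The submitters' processing notes name CASAVA 1.8.2, FastQC 0.10.0, Bismark 0.7.4, methylKit 0.5.3 and hg19, with no role or order. Nothing on library type, read filtering or duplicate removal is given in the sources used here. The lowest deposited coverage was 10 reads in every list, so CpGs with fewer reads are not represented. PCR copies cannot be told from independent molecules, so read numbers overstate the precision.

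Methylated reads were recovered from coverage and percent C, and the reads of a CpG's minus-strand C were added to those of its plus-strand C. CpGs with at least 10 reads in all 6 libraries were used, each weighted equally. Class means and shares have no test. CpGs and 1 kb tiles of at least 3 CpGs were tested over the whole genome with edgeR 4.0.16 (R 4.3.3), whose quasi-likelihood method was fitted to the methylated and unmethylated counts, with Benjamini-Hochberg adjustment (threshold 0.05), leaving out features with 0 methylated or 0 unmethylated reads. Limma 3.58.1 on log2 ratios with an offset of 0.5 and a logistic model were alternatives.

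Gene starts were placed by the CG spacing of RefSeq promoter windows (GRCh38.p14). Every listed CpG of chromosome 6 in the window had to fall on a CG, with at least 8 listed CpGs and 1 place only. A place also had to lie at the shift that nearly all others share, which 3 of 58 placements in the region did not. The text names, in each class, the 3 tiles with the most CpGs of any level, among those over 80% and among those of 20 to 80%, the 5 CpGs and tiles with the smallest p, the largest difference without overlap, and placed genes of the lists, of which those with no common CpG are mostly given as counts. The members, lists and tests were chosen with earlier results of these data known.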

Additional observations from a re-analysis of the deposited data

How the results depend on the processing

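No MHC CpG and no MHC tile passed under any edgeR setting tried or with limma (0 calls each). The logistic model without overdispersion, which treats reads as independent, called 174 of 725 MHC CpGs and 29 of 107 MHC tiles. Over the genome it called 74428 of 257696 CpGs and 13755 of 33583 tiles. At an unadjusted p under 0.05 the main edgeR setting had 16 CpGs and 2 tiles of the MHC. In the genome it had 7244 of 257696 CpGs and 1052 of 33583 tiles. Leaving out each library in turn gave 0 calls for CpGs and tiles, with 14 to 22 CpGs and 1 to 6 tiles at an unadjusted p under 0.05. The highest were 22 of 705 CpGs without control replicate 2 (genome 6504 of 252173) and 6 of 107 tiles without SAM replicate 1 (genome 1161 of 33458). The lowest CpG count was 14 of 693 without SAM replicate 3 (genome 6361 of 243963). Without SAM replicate 2, 1 of 107 tiles remained (genome 1018 of 33533). The mean difference of all MHC CpGs (SAM minus control, percentage points) ranged from 0.0652 without control replicate 3 to 0.317 without SAM replicate 3, class I from -0.380 to -0.141, class III from 0.259 to 0.932, and class II from 0.301 to 0.720. Weighting CpGs by reads gave -0.821 for the complex, -1.45 for class I and -0.799 for class II, and single CpGs reached 20220 reads. Each library's own CpGs gave -0.00821 for class I, 2.84 for class III and -1.23 for class II, with different CpGs in each library. Within coverage set A, an alternative chosen after seeing the data, the differences were 0.588 for the complex, 0.0267 for class I and 1.43 for class III, and within set B -0.0832 for the complex and -0.212 for class III. For the changes of sign above the cause was not tested. Limits of 10 and 90% raised the intermediate share to 11.9% in class I, 27.5% in class III and 19.0% in class II, and lowered the class II share above the upper limit to 12.6%. A minimum of 20 reads gave 32.9% low and 25.0% intermediate CpGs in class III. The replicate block left the differences at 0.226 for the complex, -0.252, 0.612 and 0.491 for classes I, III and II, and gave 0 calls. Same-numbered libraries showed little shared deviation over the MHC CpGs (r of 0.0474, -0.0618 and 0.116). That does not tell whether the replicate numbers pair the libraries, since libraries handled together need not deviate together in methylation. Depth limits the lowest libraries most, with median reads of 44 in SAM replicate 2 and 40 in control replicate 2.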
